A study of Homo sapiens with 15 samples.

Results

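Exon junction complexes (EJCs) that carry CASC3 and EJCs that carry RNPS1 were compared in formaldehyde-crosslinked, untreated HEK293 Flp-In Trex cells. This established line derives from human embryonic kidney. The comparison used 4 of the 15 libraries of the series, chosen by their labels alone. CASC3 footprints were made in 2 libraries, A and B, from cells that stably express FLAG-tagged CASC3, by anti-FLAG purification followed by an antibody against EIF4A3. RNPS1 footprints were made in 2 libraries, A and B, in the same way from cells that stably express FLAG-tagged RNPS1. Cells of all 4 libraries were crosslinked with 0.1% formaldehyde for 10 min and received no cycloheximide, and RNA left by RNase I was sequenced. The tagged proteins come from separate stable lines, so protein and line cannot be told apart. RNA-seq came from cells with no fusion protein, so RNA levels of the CASC3 and RNPS1 lines were not measured.

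Splicing deposits an EJC on the messenger RNA about 24 nt upstream of each exon junction, where the helicase EIF4A3 holds the RNA together with MAGOH and RBM8A. CASC3 (also named MLN51 or BTZ) and RNPS1 are peripheral proteins that join this core. RNPS1 is known as a splicing activator that works with SR proteins, and CASC3 as a mostly cytoplasmic protein that stabilizes the core on RNA. Translating ribosomes remove EJCs from the messages they read.

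Total transcript counts were 943925 and 794010 in CASC3 libraries A and B, against 2351986 and 4143750 in RNPS1 libraries A and B. The CASC3 libraries were therefore shallower. Pearson's r of log2 CPM (counts scaled to a common library total, so each value is a share of its library) was 0.91 between the CASC3 libraries and 0.94 between the RNPS1 libraries, over 12192 transcripts. CASC3 A correlated with RNPS1 A at 0.904, about as closely as with CASC3 B. Of 9 marker genes of HEK293 cells, 8 reached at least 2.65 CPM in each of the 4 libraries, and NEFM had at most 3 counts. Of 10 markers of other cell types, 9 had at most 2 counts in each library, while COL1A1, a collagen gene, had 17.0 and 44.1 CPM in CASC3 libraries, against 21.7 and 47.5 CPM in RNPS1 libraries.

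Transcripts were tested with edgeR's quasi-likelihood test and called at an adjusted p under 0.05. Of 12192 transcripts 612 (5.02%) were called: 494 (4.05%) were higher and 118 (0.968%) were lower in CASC3 than in RNPS1 footprints. An unadjusted p under 0.05 was reached by 22.9% of transcripts. The median log2 fold change over all transcripts was -0.03. The higher transcripts had a median of 6 exons and the lower ones a median of 10, against 10 for all transcripts tested. In RNA-seq their median levels were 18.4 CPM per kb for the higher and 9.6 CPM per kb for the lower transcripts, against 10.2 CPM per kb for all. The counts depended on single libraries: leaving out CASC3 A gave 886 higher and 243 lower, leaving out CASC3 B gave 288 and 64, leaving out RNPS1 A gave 247 and 122, and leaving out RNPS1 B gave 389 and 31. The labels do not say that A and B are separate cultures, so p-values measure the spread between these libraries.

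Messages of the cytoplasmic ribosome were among the largest increases on the CASC3 side. RPS12, a protein of the small subunit, had 946 and 2960 CPM in CASC3 libraries A and B, against 32.7 and 40.1 CPM in RNPS1 libraries A and B. Both CASC3 libraries stood far above both RNPS1 libraries, with CASC3 B the higher of the pair, and the log2 fold change was 6.06 ± 0.73 (SE, n = 2 per group, edgeR adjusted p = 0.0028). RPL39, of the large subunit, had 253 and 967 CPM in CASC3 libraries, against 23.0 and 22.0 CPM in RNPS1 libraries. RPS18, of the small subunit, had 997 and 3107 CPM in CASC3 libraries, against 92.7 and 71.4 CPM in RNPS1 libraries. For both genes the groups did not overlap, as the rule for naming them requires, and CASC3 B again lay above CASC3 A. The 32 tested transcripts of small-subunit proteins held 25 higher and none lower, with a median log2 fold change of 1.96, and all 32 were above 0. The 47 of the large subunit held 27 higher and none lower, with a median of 1.83, and all 47 were above 0. Of all transcripts 4.05% were higher. Without CASC3 B the small-subunit list held 14 higher with a median of 1.32, and without RNPS1 A it held 13 with a median of 1.99. As shares of a library, small-subunit transcripts took 0.833% and 1.87% of counts in CASC3 libraries, against 0.268% and 0.227% in RNPS1 libraries. Their share was 1.93% and 1.84% in RNA-seq. Ribosomal protein genes have many processed pseudogenes with nearly the same sequence, which the authors' counting may split.

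The excess in RPS12 lay on all 6 exons. Exon 1 had 581 and 1578 CPM in CASC3 libraries, against 5.53 and 6.28 CPM in RNPS1 libraries, and exon 6, the last, had 17.0 and 12.6 CPM in CASC3 libraries, against 3.83 and 2.17 CPM in RNPS1 libraries. The log2 fold change was 7.71 on exon 1 and 2.47 on exon 6, so exons of a single message differed in how far CASC3 footprints exceeded RNPS1 footprints.

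Many ribosomal protein messages start with a C followed by pyrimidines, the 5′ terminal oligopyrimidine (TOP) tract through which the kinase mTOR controls their translation. The first 15 bases at the RefSeq start (GRCh38.p14) are shown for the ribosomal protein transcripts among the largest increases, because they show which of these messages carry the tract. They are also shown for MRPS24 and TMA7, which rose as far and lack it, and for OTUB1 and IKBKE, from the largest decreases, which lack it too. Among other large increases, HMGA1, which is not a ribosomal protein, carries the tract in its first 6 bases, while COMMD6 and URGCP-MRPS24 lack it. Their bases are not printed. Capitals mark an unbroken run of C or T that starts at the first base with a C, where at least 4 pyrimidines follow that C; shorter runs, as in MRPS24, are in lower case.
RPS12 (chr6:132814569-132814583, + strand): CTCTTTCCCTgccgc
RPL39 (chrX:119791616-119791630, - strand): CCCTCCTCTTCCTTT
RPS18 (chr6:33272075-33272089, + strand): CTCTCTTCCacagga
RPL35 (chr9:124861943-124861957, - strand): CTCTTTCCCTCggag
RPL18 (chr19:48619164-48619178, - strand): CTCTTTCCggacctg
MRPS24 (chr7:43869503-43869517, - strand): cccgcgctccgcttg
TMA7 (chr3:48440257-48440271, + strand): gtttccggtggcagg
OTUB1 (chr11:63986438-63986452, + strand): agtgcggcgctgttt
IKBKE (chr1:206470476-206470490, + strand): agtgctgagcttggt
A start of C followed by at least 4 pyrimidines, read on the gene's strand, was found in 68.3% of 63 ribosomal protein transcripts with a RefSeq start and in 4.04% of all 27305 RefSeq starts. It was found in 18.3% of 355 higher transcripts, in 2.25% of 89 lower transcripts and in 5.54% of all 9317 tested transcripts with a RefSeq start. Among transcripts other than ribosomal proteins it was found in 10.3% of 312 higher ones, against 5.11% of all 9254. Their median log2 fold change was 0.02 for 473 transcripts with such a start and -0.04 for those without. The start is that of the RefSeq gene and may differ from the one used in these cells.

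Further transcripts stood among the 15 largest increases, named here for their size and not as a group. Over 12112 transcripts, which are not independent replicates, the log2 fold change had a Pearson's r of 0.01 with log2 length. The list of short transcripts for mitochondrial import and translation-machinery proteins held 6 higher of 31, with a median of 0.10 that was -0.022 without CASC3 B. MRPS24, a protein of the mitochondrial ribosome, had 234 and 599 CPM in CASC3 libraries, against 6.8 and 8.21 CPM in RNPS1 libraries, and its log2 fold change was 6.06 ± 0.61 (SE, edgeR adjusted p = 0.0028). MRPS24 overlaps URGCP-MRPS24, a readthrough gene with a log2 fold change of 4.76, and their shared reads cannot be told apart. TMA7, a small protein linked to translation, had 139 and 389 CPM in CASC3 libraries, against 11.5 and 10.9 CPM in RNPS1 libraries. HMGA1, a chromatin protein, had 666 and 1913 CPM in CASC3 libraries, against 92.3 and 92.4 CPM in RNPS1 libraries. In all of these the CASC3 libraries stood apart from the RNPS1 libraries, which the rule for naming them requires. The same 15 held RPL35 and RPL18 of the large ribosomal subunit, with log2 fold changes of 4.60 and 4.38. RPS19BP1, a partner of the small-subunit protein RPS19, had a log2 fold change of 4.84, COMMD6 4.59 and TCEB2 (elongin B) 4.26. The single-exon RNAs MIR423 and RN7SL2, a 7SL RNA, had log2 fold changes of 4.44 and 4.20. The other 72 tested mitochondrial ribosomal protein transcripts were mixed, with 11 higher and 1 lower, and the median of the list was -0.05. The 12 higher of the whole list fell to 6 without CASC3 B and to 6 without RNPS1 A.

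**Figure D1:**
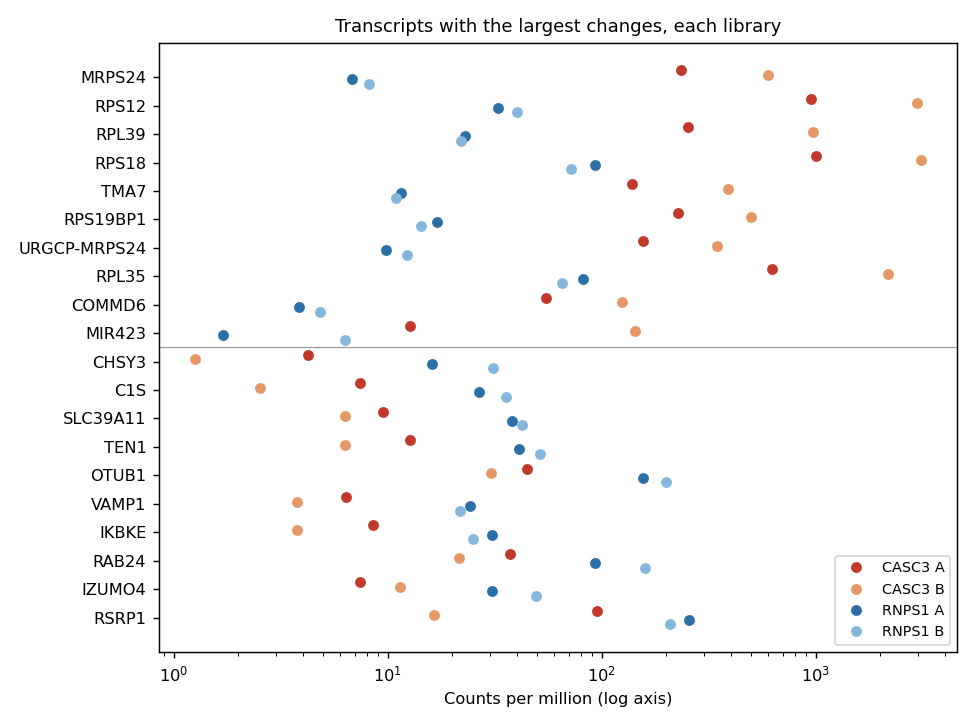
CPM on a log axis in each of the 4 libraries for the 10 largest increases (upper block) and the 10 largest decreases (lower block) among called transcripts; each point is a library. CASC3 B lies to the right of CASC3 A in every transcript of the upper block, as in RPS12 with 2960 and 946 CPM.

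Transcript level and exon number both moved with the preference. Over all transcripts 4.05% were higher and 0.968% lower. Transcripts with over 500 CPM per kb in RNA-seq had a median log2 fold change of 1.96, with 52 of 90 higher, and those of 1 CPM per kb or less had a median of -0.37. Without ribosomal proteins the 49 remaining transcripts above 500 CPM per kb held 26 higher, with a median of 2.42. The 15 tested small noncoding RNAs of ribonucleoproteins had a median of 47420 CPM per kb, so this class holds RNAs that are not messages. By exon number, the median was 0.51 for 337 single-exon transcripts, of which 47 were higher and none lower. It was 0.41 with 2 exons and 0.22 with 3 exons. It was lowest, at -0.17, with 11 to 20 exons, and was 0.27 in 245 transcripts with over 40 exons. In the main fit the medians thus lay above 0 at both ends of the range of exon numbers. At the end with few exons, the median of transcripts of up to 3 exons minus that of 6 to 20 exons was 0.47. This difference was 0.21 with no filter and 0.22 without CASC3 B, so its size depended on the filter and on that library. Single-exon genes receive no EJC by splicing of their own. They took 1.74% and 4.49% of exon counts in CASC3 libraries, against 1.85% and 2.18% in RNPS1 libraries, so the groups overlapped and CASC3 B stood apart. Of 15 tested small noncoding RNAs of ribonucleoproteins, 8 were higher and none lower, with a median of 2.51, and 13 were higher without CASC3 A. The list took 0.636% and 2.76% of counts in CASC3 libraries, against 0.444% and 0.694% in RNPS1 libraries, so the groups overlapped and CASC3 B stood apart. RNY4, a Y RNA, had 153 and 298 CPM in CASC3 libraries, against 32.3 and 19.3 CPM in RNPS1 libraries. Of 24 replication-dependent histone transcripts 6 were higher and none lower, with a median of 1.13, without CASC3 B 1 was higher, and without RNPS1 B 2 were higher. The part of unspliced RNA in the other differences was not tested.

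Fewer transcripts were called on the RNPS1 side. In CPM, which does not use the TMM scaling of the fit, both CASC3 libraries lay below both RNPS1 libraries in 4253 transcripts (34.9%). They lay above them in 2228 (18.3%). After that scaling the split was nearly even, with 48.4% of all transcripts at a log2 fold change above 0. The largest decrease was in CHSY3, a chondroitin sulfate synthase, which had 4.24 and 1.26 CPM in CASC3 libraries, against 16.2 and 31.1 CPM in RNPS1 libraries (log2 fold change -2.89 ± 0.68, SE, edgeR adjusted p = 0.037). Its CASC3 values rest on 4 and 1 counts. C1S, a complement protease, had a log2 fold change of -2.43, SLC39A11, a zinc transporter, -2.13 and TEN1, a telomere-capping protein, -2.08. OTUB1, a deubiquitinase and the most abundant of these, had 44.5 and 30.2 CPM in CASC3 libraries, against 156 and 199 CPM in RNPS1 libraries (log2 fold change -2.05 ± 0.34, SE, edgeR adjusted p = 0.0084). VAMP1, a vesicle SNARE, IKBKE, a kinase of innate immunity, and RAB24, a small GTPase, each had a log2 fold change between -1.95 and -1.94. PNN (pinin), itself a partner of RNPS1, had 209 and 140 CPM in CASC3 libraries, against 517 and 587 CPM in RNPS1 libraries, with a log2 fold change of -1.47 ± 0.36 (SE, edgeR adjusted p = 0.040). Both CASC3 libraries lay below both RNPS1 libraries in all of these, as in all 118 lower transcripts. The rule for naming the largest changes requires it. The mean length of exons had a median of 205 nt in the 118 lower transcripts, against 321 nt in the 494 higher ones and 290 nt in all.

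Transcripts known to keep introns in the nucleus, the detained-intron list, lay on the RNPS1 side. Of 22 tested, 3 were lower and none higher, 21 were below 0, and the median log2 fold change was -0.87. Over all transcripts 0.968% were lower. This list too was chosen with earlier results of these data known. TIA1, an RNA-binding regulator of splicing and translation, had 51.9 and 32.7 CPM in CASC3 libraries, against 128 and 133 CPM in RNPS1 libraries (log2 fold change -1.43, edgeR adjusted p = 0.030). RSRP1, an arginine- and serine-rich protein, had 95.3 and 16.4 CPM in CASC3 libraries, against 255 and 209 CPM in RNPS1 libraries. Without CASC3 B none of the 22 was called and the median was -0.83, and without RNPS1 A 1 was called. As a share of each library the list took 0.547% and 0.426% of counts in CASC3 libraries, against 1.01% and 1.06% in RNPS1 libraries. SR proteins, hnRNPs and related splicing factors held no called transcript among 48 tested, 13 at an unadjusted p under 0.05 in edgeR, and a median of -0.12. That threshold was passed by 22.9% of all transcripts, and 19 of the 48 had a log2 fold change above 0. SRSF5, an SR protein, had 186 and 125 CPM in CASC3 libraries, against 359 and 520 CPM in RNPS1 libraries (edgeR adjusted p = 0.064).

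Proteasome subunits and zinc finger genes stood near the median of all transcripts, of which 4.05% were higher and 0.968% lower. Proteasome subunits held 2 higher of 32 and a median of -0.04, with none higher without RNPS1 A and 1 without CASC3 B. Zinc finger genes held 16 higher and 2 lower of 384 and a median of -0.03, with 25 higher and 8 lower without CASC3 A. Natural targets of nonsense-mediated decay held no called transcript of 28 (7 at an unadjusted p under 0.05 in edgeR), with a median of 0.33. That threshold was passed by 22.9% of all transcripts. The nuclear-encoded respiratory chain held 5 higher and 1 lower of 72, with a median of 0.53. None was higher without CASC3 B or without RNPS1 A, 3 were without RNPS1 B and 11 without CASC3 A. As a share of counts the list ran the other way, with 0.233% and 0.210% in CASC3 libraries, against 0.244% and 0.239% in RNPS1 libraries. NDUFA13, a subunit of complex I and the lower member, had 27.5 and 22.7 CPM in CASC3 libraries, against 89.7 and 110 CPM in RNPS1 libraries. Among the genes of the complex itself, CASC3, EIF4A3, MAGOH and RBM8A had adjusted p-values of 0.28 to 0.70 in edgeR. RNPS1 had 670 and 1365 CPM in CASC3 libraries, against 421 and 371 CPM in RNPS1 libraries (edgeR adjusted p = 0.073). Counts of CASC3 and RNPS1 may hold RNA of the transgenes.

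**Figure D2:**
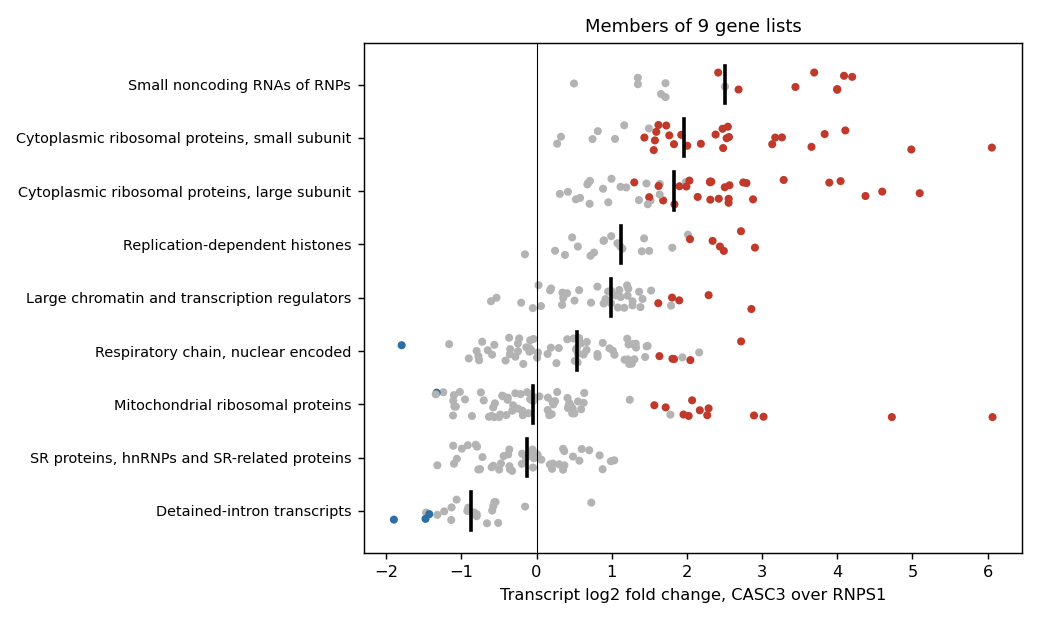
Transcript log2 fold change, CASC3 over RNPS1, for the tested members of 9 gene lists; red points were called higher, blue points lower, grey points neither, and the black bar is the list's median. All 79 ribosomal protein transcripts lie right of 0, and 21 of 22 detained-intron transcripts lie left of it.

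Large genes for chromatin and transcription regulators leaned to CASC3 as well, although they have long messages with many exons. Of 41 tested, 5 were higher and none lower, 37 were above 0, and the median log2 fold change was 0.99. Over all transcripts 4.05% were higher. The list was chosen with earlier results of these data known. SPEN, a transcriptional corepressor, had 3009 and 4903 CPM in CASC3 libraries, against 705 and 625 CPM in RNPS1 libraries (log2 fold change 2.86 ± 0.56, SE, edgeR adjusted p = 0.018). ASH1L, a histone methyltransferase, had 397 and 437 CPM in CASC3 libraries, against 159 and 126 CPM in RNPS1 libraries. Without RNPS1 A or without RNPS1 B 1 of the 41 was higher, without CASC3 B 3 were, and without CASC3 A 10 were; the median stayed at 0.89 or more in each. This list took 2.85% and 3.00% of counts in CASC3 libraries, against 1.59% and 1.45% in RNPS1 libraries.

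Along long messages the preference changed with position, and exons far from the 5′ end leaned to CASC3. Of 47912 exons tested with edgeR 2090 (4.36%) were called: 1854 (3.87%) were higher and 236 (0.493%) lower in CASC3. Leaving out CASC3 A gave 3837 higher and 676 lower, leaving out CASC3 B gave 622 and 38, leaving out RNPS1 A gave 437 and 176, and leaving out RNPS1 B gave 391 and 14. The median log2 fold change of internal exons was -0.42 at rank 2, -0.48 at rank 3, -0.45 at ranks 4 and 5, -0.29 at ranks 6 to 10 and 0.01 at ranks 11 to 20. It was 0.64 beyond rank 20, where 491 exons were higher and 2 lower of 5675. Coding internal exons that end within 500 nt of the 5′ end of the spliced message had a median of -0.57. Of these 2781 exons 119 were called higher, or 4.28%, against 3.87% of all exons. Another 39 were called lower, a larger share than the 0.493% of all exons. Without CASC3 A these counts were 222 and 81, without CASC3 B 48 and 2, without RNPS1 A 37 and 27, and without RNPS1 B 36 and 1. Those that end over 5000 nt from it had a median of 1.04, with 386 higher and 1 lower of 2738. Without CASC3 B the 2 medians were -0.64 and 0.92, and without RNPS1 B they were -0.57 and 1.19. The count of higher exons beyond 5000 nt moved with single libraries: it was 694 without CASC3 A, 115 without CASC3 B, 91 without RNPS1 A and 62 without RNPS1 B. Beyond rank 20 it was 1026 without CASC3 A, 125 without CASC3 B, 99 without RNPS1 A and 81 without RNPS1 B.

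Distance along the spliced message went with the preference more closely than the other measures. Across 36314 internal exons, which are not independent since exons of a message share its level, Pearson's r of the log2 fold change was 0.33 with log2 distance from the 5′ end in the message. It was 0.29 with log2 exon rank, 0.18 with log2 genomic distance from the start of the gene, 0.09 with GC content and 0.01 with log2 exon length. It was -0.00 with log2 distance to the 3′ end. A linear fit on exon length, GC content, exon number and mean level described 4.14% of the variance, and 13.3% with distance added. The order by rank was kept at every level of base composition up to 65% GC: in exons of 45 to 50% GC, the median was -0.66 at ranks 2 and 3 and 0.65 beyond rank 20, and in exons of 60 to 65% GC it was -0.40 and 0.65. Above 65% GC the medians were 0.03 and 0.71.

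**Figure D3:**
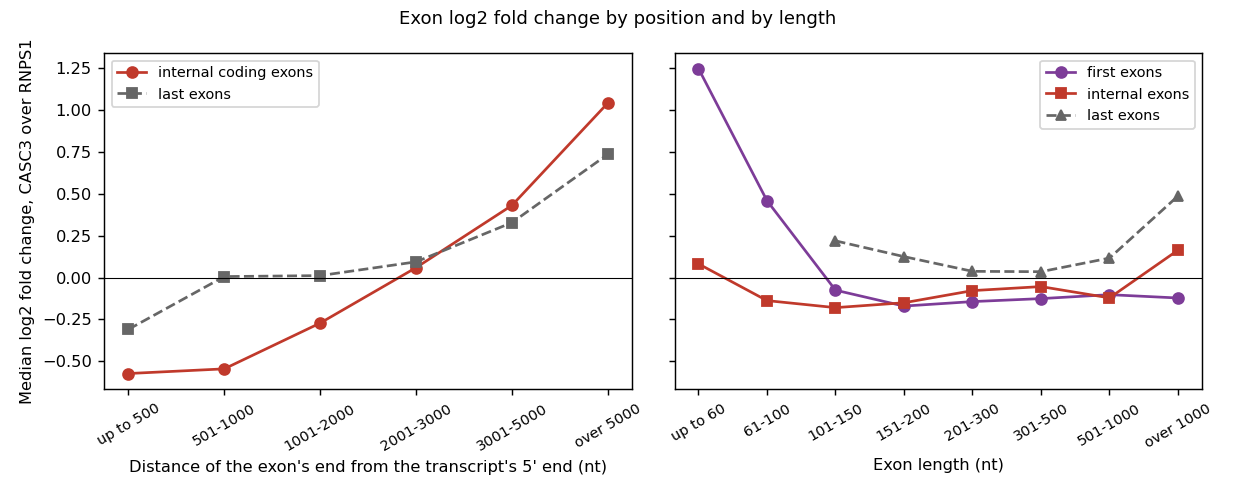
Left, median log2 fold change (CASC3 over RNPS1) of coding internal exons and last exons by the distance of the exon's end from the 5′ end of the spliced message; right, the same by exon length for first, internal and last exons, with classes under 20 exons left out. Coding internal exons run from -0.57 within 500 nt to 1.04 beyond 5000 nt, and first exons of up to 60 nt stand at 1.25.

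The same pattern stood in the raw shares of counts, with no filter. In transcripts with over 40 exons, the first 20% of exon ranks held 15.5% and 12.5% of internal-exon counts in CASC3 libraries, against 22.2% and 21.2% in RNPS1 libraries. The last 20% held 24.9% and 29.9% in CASC3 libraries, against 16.9% and 17.5% in RNPS1 libraries. RNA-seq held 20.1% and 19.6% in the first and 17.1% and 17.5% in the last. The RNPS1 footprints thus lay near the RNA-seq values, and CASC3 footprints lay below them upstream and above them downstream. In transcripts with 11 to 20 exons the last 20% of ranks held 18.9% and 21.8% in CASC3 libraries, against 14.5% and 15.7% in RNPS1 libraries. With 2 libraries against 2 an exact two-sided permutation test cannot go below p = 0.333. Over 37 classes of position, length, GC content and exon number 17 did not overlap between groups. A class with no difference would lack overlap with a probability of 0.333. Shares within a variable add up to a whole, so the classes are not independent. The smallest Benjamini-Hochberg adjusted p of the permutation test was 0.725.

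**Figure D4:**
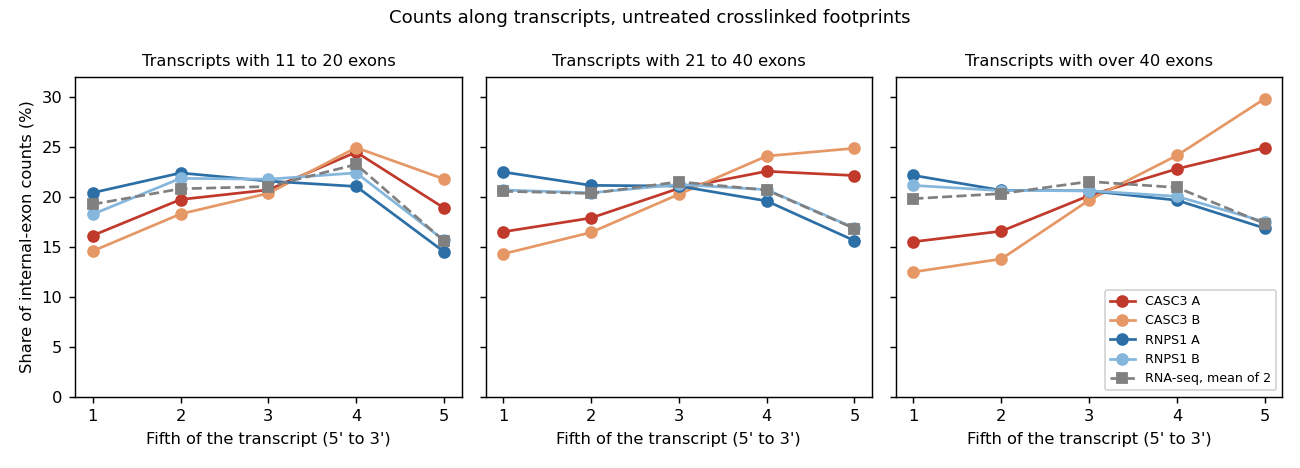
Share of internal-exon counts in 5 equal steps of exon rank from the 5′ end to the 3′ end, in transcripts with 11 to 20, 21 to 40 and over 40 exons; each coloured line is a library and the grey line is the mean of the RNA-seq libraries. In transcripts with over 40 exons the CASC3 lines end at 24.9% and 29.9%, against 16.9% and 17.5% for the RNPS1 lines.

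The position effect was then measured within each message, which removes its overall level. For 3793 transcripts with at least 6 internal exons and at least 20 counts in each library, counts downstream of the midpoint of the exon ranks were divided by those upstream of it. The median log2 ratio was 0.13 and 0.37 in CASC3 libraries A and B, against -0.34 and -0.23 in RNPS1 libraries A and B. The median difference was 0.50, and 81.3% of transcripts were above 0. The CASC3 libraries both lay above the RNPS1 libraries in 54.7% of transcripts and below them in 5.56%. In limma, 164 transcripts (4.32%) had a higher downstream ratio and 1 (0.0264%) a lower one in CASC3 at an adjusted p under 0.05, 4.35% in either direction, and 856 (22.6%) passed at an unadjusted p. Calls for single transcripts depended on the CASC3 replicates: leaving out CASC3 A or CASC3 B left none, with medians of 0.64 and 0.39, and leaving out RNPS1 A or RNPS1 B gave 300 and 295 higher, with 8 and 4 lower. A test of the same sums in edgeR (diffSpliceDGE) called none, with 86 at an unadjusted p under 0.05 and 82.2% above 0. This ratio was chosen after the exon medians by rank had been seen, so the whole gradient and not the list of calls is its result. The difference widened with length, with medians of 0.30 for transcripts of up to 2000 nt and 0.69 for those over 8000 nt.

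PRRC2A, an RNA-binding protein of 31 exons (chr6:31620720-31637771), had the smallest p. Its downstream exons 17 to 30 held 1175 and 1770 counts in CASC3 libraries, against 686 and 1454 counts in RNPS1 libraries. Its upstream exons 2 to 16 held 1100 and 1242 counts in CASC3 libraries, against 1746 and 4502 counts in RNPS1 libraries. These counts are raw and the RNPS1 libraries were deeper, so only the ratio within a library can be compared. The log2 ratio was 0.10 and 0.51 in CASC3 libraries, against -1.35 and -1.63 in RNPS1 libraries, a difference of 1.87 ± 0.14 (SE, limma adjusted p = 0.0015). HERC2, a ubiquitin ligase of 93 exons (chr15:28111040-28322152), had log2 ratios of 1.15 and 1.36 in CASC3 libraries, against -0.02 and -0.22 in RNPS1 libraries. FASN, fatty acid synthase, had 0.97 and 1.09 in CASC3 libraries, against -0.16 and 0.06 in RNPS1 libraries. These 3 messages were named for their small p, and in them the groups did not overlap. HERC2 has partial copies elsewhere in the genome, and several of its middle exons had counts near 0.

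NOP56, a core protein of box C/D snoRNPs whose introns hold snoRNAs, changed in a step and not in a slope. Exon 8 had 25.4 and 3.78 CPM in CASC3 libraries, against 27.6 and 27.8 CPM in RNPS1 libraries. Exon 9 had 244 and 312 CPM in CASC3 libraries, against 45.5 and 23.9 CPM in RNPS1 libraries. From exon 9 to the last exon CASC3 footprints were the higher, with log2 fold changes of 1.59 to 3.19, and on exons 1 to 8 the fold changes lay between -1.54 and -0.40. The 1 message with a lower downstream ratio in CASC3 was CTD-2132N18.3, with log2 ratios of 0.25 and -0.44 in CASC3 libraries, against 2.75 and 3.57 in RNPS1 libraries.

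**Figure D5:**
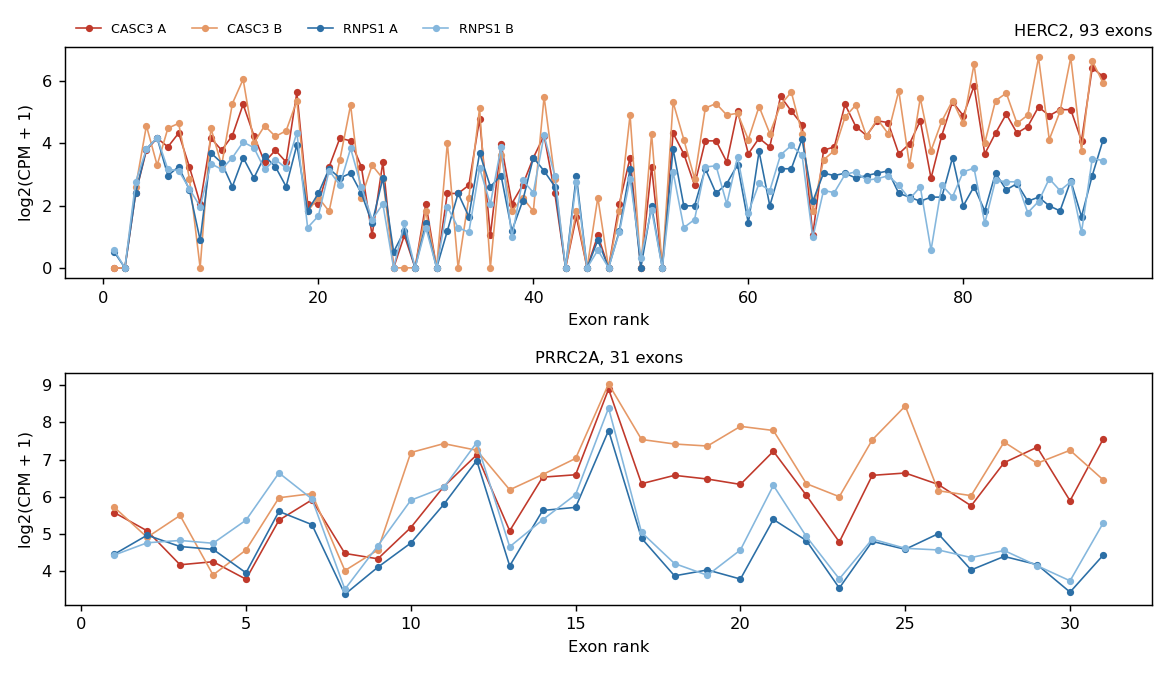
Level of each exon as log2(CPM + 1) along HERC2 (top) and PRRC2A (bottom) in the 4 libraries. In both messages the red and orange CASC3 lines lie near the blue RNPS1 lines at the 5′ end and above them over most downstream exons; PRRC2A ratios are 0.10 and 0.51 in CASC3 libraries, against -1.35 and -1.63 in RNPS1 libraries.

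First exons did not follow the gradient, and short ones leaned to CASC3. Over all exons tested 3.87% were called higher and 0.493% lower. First exons had a median log2 fold change of -0.09 over all 5183, with 263 higher and 14 lower. Those of up to 60 nt had a median of 1.25, with 34 higher and none lower of 118, and those of 61 to 100 nt a median of 0.46, with 55 higher and 1 lower of 272. First exons longer than 100 nt had class medians between -0.17 and -0.07. Internal exons of up to 60 nt had a median of 0.08. In medians, first exons of up to 60 nt stood 1.39 above those of over 200 to 300 nt in the main fit. With no filter the difference was 0.43, so its size also depended on the filter. Without CASC3 B the median of first exons of up to 60 nt was 0.28 with 10 higher of 203, so its size rested on that library. Without RNPS1 B the median was 2.03 with 15 higher, without RNPS1 A it was 1.69 with 15 higher, and without CASC3 A 61 were higher. First exons of up to 60 nt took 2.56% and 5.06% of first-exon counts in CASC3 libraries, against 1.51% and 1.75% in RNPS1 libraries. First exons that hold only 5′ untranslated sequence had a median of 0.21, with 140 higher and 3 lower of 1303, and those with the start codon a median of -0.18, with 113 higher and 11 lower of 3717. First exons over 80% GC had a median of 0.78, with 62 higher and none lower of 351. Without CASC3 B, RNPS1 A or RNPS1 B 26, 22 and 27 of them were higher, and without CASC3 A 92.

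The largest single-exon increases were mostly in first exons. Exon 1 of ZNF865, a zinc finger gene, had 41.3 and 126 CPM in CASC3 libraries, against 0.425 and 0 CPM in RNPS1 libraries, a ratio of 520 with a 95% exact counting interval of 91.7 to 20665. Exon 1 of MRPS24 had 81.6 and 256 CPM in CASC3 libraries, against 0.85 and 0.965 CPM in RNPS1 libraries. In each of these exons RNPS1 footprints were close to absent. On the other side exon 1 of FANCL, a ubiquitin ligase of the Fanconi anemia pathway, had 3.18 and 0 CPM in CASC3 libraries, against 34.9 and 21 CPM in RNPS1 libraries, a ratio of CASC3 over RNPS1 of 0.0663 with a 95% exact counting interval of 0.0135 to 0.197. Intervals cover counting error only, since PCR reads without molecular identifiers are not independent.

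Coding internal exons with the largest differences are shown by the 30 bases that end 10 nt before the exon's 3′ end (GENCODE v29, hg38), where an EJC would sit, because they let the sites of both complexes be set side by side. Capitals mark bases 28 to 20 upstream of the junction. Exons whose position belongs to more than 1 transcript were left out. The first 4 were higher in CASC3 and the last 4 lower.
RPS12 exon 5 (chr6:132817023-132817052, + strand): ccccgtaaagtGGTTGGTTGcagttgtgta
RPL39 exon 2 (chrX:119789917-119789946, - strand): tccccagtggaTTCGGATGAaaactggaaa
FAT1 exon 24 (chr4:186597691-186597720, - strand): cgccgtttgtcAGTGTGATTcgggttttag
RPS18 exon 3 (chr6:33275845-33275874, + strand): gacctcaccaaGAGGGCGGGagaactcact
KIAA1147 exon 7 (chr7:141664913-141664942, - strand): tgctgacagggAGAAGTACCgccggctcaa
MAPK11 exon 11 (chr22:50265330-50265359, - strand): gcgttgaggccAAGGAGCGCacgctggagg
LIG1 exon 3 (chr19:48162271-48162300, - strand): ggcatccaataGCAGCAGAGagacggagcc
SEC31B exon 8 (chr10:100506330-100506359, - strand): gacagccagatCTTGTGCCGgaacctgggg
RPS12 exon 5 had 85.8 and 621 CPM in CASC3 libraries, against 1.28 and 5.07 CPM in RNPS1 libraries. FAT1 exon 24, in a large cadherin of 27 exons, had 21.2 and 68.0 CPM in CASC3 libraries, against 0.85 and 1.45 CPM in RNPS1 libraries. KIAA1147 exon 7 had 2.12 and 1.26 CPM in CASC3 libraries, against 22.1 and 22.7 CPM in RNPS1 libraries, a ratio of CASC3 over RNPS1 of 0.0768 with a 95% exact counting interval of 0.0157 to 0.229. LIG1 exon 3, in DNA ligase 1, had 4.24 and 0 CPM in CASC3 libraries, against 25.1 and 26.8 CPM in RNPS1 libraries. In each exon the groups did not overlap. The windows had 50, 46.7, 50 and 60% GC in the 4 exons higher in CASC3, and 60, 70, 60 and 63.3% GC in the 4 lower ones. These 8 exons were picked for their values and do not stand for the rest.

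Over all internal exons, preference changed with the GC content of the same 30-base window. The median log2 fold change was -0.15 for windows of up to 35% GC, -0.27 for 45 to 50% and 0.33 for over 70%, with 193 higher and 5 lower of 2468 in the last. For whole internal exons it was -0.25 at 45 to 50% GC and 0.34 above 70%. GC content also differed between replicates: its count-weighted mean was 55.3% and 56.9% in CASC3 libraries, against 54.1% and 56.1% in RNPS1 libraries, so the groups overlapped. For all exons the difference between classes over 65% and of 45 to 50% GC was 0.26, and it was -0.18 without RNPS1 A. The part of library composition in the GC pattern was not tested.

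Medians of internal exons changed little with exon length, while the share of called exons was larger in short ones. The medians lay between -0.18, for over 100 to 150 nt, and 0.16, for over 1000 nt, across 8 classes. Of internal exons over 60 to 100 nt 6.03% were higher and 1.22% lower, against 2.36% and 0.285% of those over 200 to 300 nt. Called higher exons had a median of 133 nt, against 166 nt for all exons tested. Last exons, which lie downstream of the final junction, had a median of 0.38, with 208 higher and 7 lower of 5610; 3.71% were higher, close to the 3.87% of all exons. Last exons of over 1000 nt had a median of 0.49 and both classes between 200 and 500 nt medians of 0.04. Last exons of low GC content leaned most to CASC3, with a median of 0.83 up to 35% GC and 0.12 at 60 to 65% GC. Last exons took 15.2% and 11.7% of counts in CASC3 libraries, against 12.5% and 11.6% in RNPS1 libraries, so the groups overlapped. Without CASC3 B 133 last exons were higher and 1 lower, without RNPS1 A 15 were higher and 4 lower, and without RNPS1 B 16 and none, with medians of 0.57 and 0.30.

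Exon use within genes, tested with edgeR's diffSpliceDGE and the Simes method, differed in 9 of 6479 genes (0.139%), and 674 (10.4%) passed at an unadjusted p under 0.05. ARID1B, a subunit of the BAF chromatin remodelling complex, had the smallest adjusted p, 0.00015 in edgeR. Its exon 16 of 19, a coding exon, had 18.0 and 54.2 CPM in CASC3 libraries, against 1.7 and 1.69 CPM in RNPS1 libraries. DNAJC21 exon 11 of 12, in a ribosome biogenesis chaperone, had 11.7 and 40.3 CPM in CASC3 libraries, against 1.28 and 1.45 CPM in RNPS1 libraries. PLXNA2 exon 25 of 32, in a semaphorin receptor, had 14.8 and 18.9 CPM in CASC3 libraries, against 0.85 and 1.69 CPM in RNPS1 libraries. PTPRG, a receptor phosphatase, differed at its last exon, with 15.9 and 8.82 CPM in CASC3 libraries, against 1.7 and 1.45 CPM in RNPS1 libraries. In these 4 genes the exon with excess in CASC3 lay downstream. It was exon 1 of 2 in ZNF865 and GEMIN4 and exon 2 of 5 in RP11-2C24.4. In PFKP it was exon 20 of 22, with 9.54 and 27.7 CPM in CASC3 libraries, against 3.83 and 3.86 CPM in RNPS1 libraries. In FBN2 exon 10 of 71 was lower in CASC3, with a log2 fold change of -2.61, while its last exon had 2.45. GEMIN4, RP11-2C24.4, PFKP and FBN2 were named after their values were seen. Leaving out CASC3 B, RNPS1 A or RNPS1 B left no gene, and leaving out CASC3 A gave 203.

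Libraries outside the comparison showed the same direction to differing degrees. Native footprints of the EIF4A3 pair had 1 library each, so no test was made. Of the 494 higher transcripts 453 had a native CASC3 over RNPS1 ratio above the median of all transcripts, with a median log2 ratio of 0.75, and of the 118 lower ones 117 had a ratio below it, with a median of -0.62. In the native MAGOH pair, purified through MAGOH and then CASC3 or RNPS1, the numbers were 380 of 494 with a median of 0.24 and 87 of 118 with a median of -0.12. The MAGOH pair comes from the same tagged protein in both libraries. The downstream over upstream ratio was -0.19 in native CASC3-EIF4A3 footprints, against -0.46 in native RNPS1-EIF4A3 footprints, and -0.34 in MAGOH-CASC3, against -0.49 in MAGOH-RNPS1 footprints. Crosslinked CASC3 footprints were the only ones without cycloheximide with a ratio above 0, and RNA-seq had -0.21 and -0.20.

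With cycloheximide, given at 100 µg/ml for 3 h to block translation, the gradient was steeper. The downstream ratio was 0.870 and 1.161 in CASC3 libraries, against -0.41 and -0.31 in RNPS1 libraries, over the same 3793 transcripts. Of 2869 transcripts tested in limma in those 4 libraries, 2058 (71.7%) had a higher and 3 (0.105%) a lower ratio in CASC3, with a median difference of 1.40. Of the 164 transcripts called without cycloheximide 160 could be tested, and 130 of them were also higher there. The test of the difference between treated and untreated libraries called none of 2520 transcripts in limma (514 at an unadjusted p under 0.05), although its median was 0.85 and 88.5% were above 0. For levels of whole transcripts, 289 of 484 higher transcripts had a log2 fold change above 0 with cycloheximide, against 6152 of all 12090. Of the 118 lower ones 108 were below 0, against 5938 of all 12090. With cycloheximide edgeR called none of 14290 transcripts (3404 at an unadjusted p under 0.05). The small- and large-subunit ribosomal protein lists had medians of 0.13 and 0.05 with cycloheximide, against 0.03 for all transcripts. RPL35, 1 member of the large-subunit list, had a log2 fold change of 4.60 without and -2.63 with cycloheximide. Its edgeR interaction had an adjusted p of 0.066. Of the RNPS1 libraries with cycloheximide, B held 467741 counts and A 7251722, with mean GC contents of 56.3% and 47.9%. The CASC3 libraries with cycloheximide held 8057700 and 6701629 counts. The unequal RNPS1 libraries limit the comparisons with cycloheximide.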

How the data were processed

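Footprint RNA of FLAG-CASC3 and FLAG-RNPS1 EJCs was measured by RIPiT-Seq. Per the submitters' processing notes, cutadapt 1.16, TopHat2 2.1.1, bedtools and hg38 were used; the sources used here do not give the annotation or the counting settings. The deposited tables hold counts per exon (279143) and per transcript (49948), which were used as deposited after 19 blank lines were left out. Total counts of the 4 libraries ran from 794010 to 4143750. Exon rank, region, GC content and distance were taken from GENCODE v29.

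Libraries were grouped by the labels, and the 4 were fitted alone with edgeR 4.0.16 (R 4.3.3): a filter by filterByExpr (minimum count 10), TMM scaling, the quasi-likelihood test, Benjamini-Hochberg adjusted p under 0.05. SE is the log2 fold change over the square root of F. Weighted log2 ratios of downstream over upstream counts were tested with limma 3.58.1. The fits were tested on simulated data. CPM uses all counts of a library. Tables and plots were made with pandas 2.3.3 and matplotlib 3.10.9.

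Members and the 25 gene lists were chosen with earlier results of these data known. Named transcripts were taken from the 15 largest changes in each direction (called, average log2 CPM of at least 4, no overlap) and the 4 smallest p of each list; named exons likewise, 8 in each direction, besides the coding exons printed and exons of named transcripts. Native log2 CPM ratios used a prior of 2 counts and were centred on the median. Alternatives were DESeq2 1.42.0, limma-voom, other scalings and filters, GC offsets, thinning, a replicate block, the 8 crosslinked libraries together and leaving out each library. A named item is not reported here.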

Additional observations from a re-analysis of the deposited data

How the results depend on the processing

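Counts of calls moved with the settings. Differences between exon classes kept their sign, except that of GC content without RNPS1 A. Transcripts higher in CASC3 (494) numbered 775 with no filter, 802 with GC offsets and 79 in the fit of all 8 crosslinked libraries; leaving out 1 library gave 247 to 886. Transcripts lower in CASC3 (118) numbered 77 with DESeq2 size factors, 442 with no filter, 73 after thinning, 40 in limma-voom, 332 with GC offsets and 1 in the fit of 8 libraries; leaving out 1 library gave 31 to 243. Exons higher (1854) numbered 933 after thinning and 391 to 3837 without 1 library. Exons lower (236) numbered 397 at a mean CPM of at least 10, 154 after thinning and 14 to 676 without 1 library. Genes with differing exon use (9) ran from 0 to 203 without 1 library. Transcripts with a higher downstream ratio (164) numbered 260 after thinning, 0 in edgeR's diffSpliceDGE and 0 to 300 without 1 library, and its median ran from 0.39 to 0.64.

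The letters A and B do not mark shared cultures in the labels. Deviations of same-lettered libraries correlated at 0.385, and with only 2 pairs this does not show pairing. With the letter as a block in the fit (replicate block), 1622 transcripts were higher and 1197 lower, 5140 exons were higher and 2424 lower, exon use differed in 240 genes and the downstream ratio was higher in 742 transcripts.

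Among class differences of medians, rank over 20 minus ranks 2 and 3 was 1.08 (0.95 to 1.45 without 1 library), and over 5000 nt minus up to 500 nt was 1.53 (1.48 to 1.92). Last minus internal exons was 0.51, 0.36 after thinning, and 0.30 to 0.66. Short minus longer first exons was 1.39, 0.43 with no filter, and 0.43 to 2.26. GC over 65% minus 45 to 50% was 0.26 and ran from -0.18 (without RNPS1 A) to 0.68. Exons over 1000 nt minus over 100 to 150 nt was 0.57, 0.34 in internal exons alone, and 0.21 to 0.80. Over 40 exons minus 11 to 20 was 0.65, 0.55 with no filter, 0.76 at a mean CPM of at least 10, 0.75 after thinning, 0.74 in internal exons alone, and 0.59 to 0.88. Transcripts of up to 3 exons minus 6 to 20 was 0.47, 0.21 with no filter, and 0.22 to 0.65. The causes were not tested. Among lists, the core spliceosome median (0.13) was -0.090 after thinning, -0.043 without RNPS1 B and up to 0.12 without 1 library, and short import and translation-machinery transcripts (0.10) had -0.022 without CASC3 B and up to 0.33 without another. The depth of the CASC3 libraries limits exons with few counts.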
